A study of Mus musculus with 6 samples.

Results

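The expression of 9 genes of astrocyte water, potassium, bicarbonate, calcium and gap junction handling was followed in infarcted mouse cortex: Aqp4 with Dtna, Dag1 and Dmd of its anchoring complex, Kcnj10, the connexin genes Gja1 and Gjb6, Slc4a4 and Trpv4. They were taken by name from a table of 56748 genes, and 9 of 9 were found and passed the filter on low counts that left 17584 genes. The 6 RNA-seq libraries came from male wild-type C57 mice in which light and an intravenous agent (100 mg/kg) had made a photothrombotic stroke in the left hemisphere. Saline (3 libraries) or PLEA nanoparticles (3 libraries) had been given into the tail vein (100 µL) 2 hours later, and tissue was labelled day 3. All 6 libraries therefore share the stroke, and no unlesioned tissue was used here. Whether replicates of a group were separate animals is not stated in the labels. The p-values therefore reflect library-to-library spread only, and part of it may be technical.

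Astrocytes take up potassium and glutamate released by neurons and surround vessels with endfeet. The water channel aquaporin-4 is held in the endfoot membrane by syntrophin and dystrobrevin, which bind dystrophin, which in turn binds dystroglycan and through it the laminin and agrin of the vessel wall. The potassium channel Kir4.1 (Kcnj10) is enriched at the same endfeet, and connexin 43 (Gja1) and connexin 30 (Gjb6) join astrocytes into a network through which ions spread. Loss of this endfoot arrangement is a known feature of injured cortex, where water handling bears on swelling.

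Promoter sequences are shown for the members whose PLEA libraries all lay below the saline libraries, to put the start sites of those genes beside their values. They are RefSeq sequences of GRCm38.p6, read 5′ to 3′ on the gene's strand from 250 bases before to 50 after the start, and 7 of the 9 members had an entry. Capitals mark a match to any of 3 motifs searched on both strands: the NFI half-site TTGGCA, the SOX sites ACAAAG or ACAATG, and the STAT site TTCNNNGAA. Slc4a4 has 2 start sites in the table.
Kcnj10, chr1:172340960-172341259, plus strand: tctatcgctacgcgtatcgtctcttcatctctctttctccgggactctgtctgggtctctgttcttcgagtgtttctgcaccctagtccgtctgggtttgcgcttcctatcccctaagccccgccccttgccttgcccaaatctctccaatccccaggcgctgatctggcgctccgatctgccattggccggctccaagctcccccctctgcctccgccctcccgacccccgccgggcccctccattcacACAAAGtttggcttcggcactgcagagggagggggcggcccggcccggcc
Gja1, chr10:56377050-56377349, plus strand: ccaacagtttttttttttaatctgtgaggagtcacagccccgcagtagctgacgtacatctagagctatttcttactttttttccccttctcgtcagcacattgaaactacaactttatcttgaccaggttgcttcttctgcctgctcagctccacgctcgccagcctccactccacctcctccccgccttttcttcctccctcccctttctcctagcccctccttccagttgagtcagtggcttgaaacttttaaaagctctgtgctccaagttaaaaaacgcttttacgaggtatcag
Slc4a4, chr5:88887010-88887309, plus strand: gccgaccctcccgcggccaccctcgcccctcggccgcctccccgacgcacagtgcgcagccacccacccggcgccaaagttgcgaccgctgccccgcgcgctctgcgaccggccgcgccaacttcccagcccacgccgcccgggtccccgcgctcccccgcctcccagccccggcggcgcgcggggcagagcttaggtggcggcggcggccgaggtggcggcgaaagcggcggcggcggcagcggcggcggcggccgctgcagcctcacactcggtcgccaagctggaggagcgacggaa
Slc4a4, chr5:89027716-89028015, plus strand: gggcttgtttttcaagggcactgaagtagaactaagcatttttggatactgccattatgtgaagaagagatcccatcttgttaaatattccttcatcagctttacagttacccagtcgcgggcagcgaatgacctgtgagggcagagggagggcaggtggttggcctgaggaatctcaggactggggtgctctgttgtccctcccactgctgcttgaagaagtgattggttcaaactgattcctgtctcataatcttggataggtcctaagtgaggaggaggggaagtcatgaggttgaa

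Among these 4 windows the only match was ACAAAG in Kcnj10, on the plus strand from base 1 after the start. Of 32851 promoters of that length searched, all outside chromosome 18, 28.6% held a SOX match, 14.1% the NFI half-site and 8.3% the STAT site. Of the 10 member promoters, 1 of Dmd held the NFI half-site. The windows differed in base composition, from 47.7% G and C in Gja1 to 80.0% in the first Slc4a4 window and 63.7% in Kcnj10. A match is a description of letters and not evidence of binding.

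Total counts ranged from 16810448 to 17516434 per library, and in its smallest library each member other than Trpv4 had a counting error of 4.45% or less. Astrocyte, neuronal and oligodendrocyte markers were abundant in each library, for example Slc1a2, the main glutamate transporter of astrocytes, at a mean of 2786 CPM in saline and 2422 CPM in PLEA (CPM, counts scaled to a common total by the library's total and its TMM factor). The cortical neuron gene Slc17a7 averaged 880.0 and 932 CPM. Striatal markers were also present, and the summed level of 9 of them was 968, 239.5 and 2283 CPM in the saline libraries and 1046, 2248 and 1946 CPM in the PLEA libraries, lowest in saline replicate 2.

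Per length, Kcnj10 was the most abundant member and Trpv4 the least. In saline the level per length was 241 ± 80.5 TPM for Kcnj10, 117 ± 48.8 for Aqp4, 92.5 ± 12.9 for Slc4a4, 79.2 ± 11.7 for Gja1, 74.9 ± 6.35 for Dag1 and 71.9 ± 13.6 for Gjb6 (SD, n = 3; TPM, counts per length scaled to a common sum). Among these 6, each range over libraries overlapped that of the next. Dtna (43.5 ± 4.89 TPM), Dmd (15.1 ± 2.12 TPM) and Trpv4 (1.72 ± 0.604 TPM) followed in that order, each range below the one before. In PLEA Kcnj10 was again first, at 127 ± 30.8 TPM, with its range above that of Dag1, now second at 74.6 ± 8.08 TPM. Aqp4 was next to Kcnj10 in the saline order but below Dag1, Slc4a4 and Gjb6 in PLEA, at 55.4 ± 19.0 TPM, and its PLEA range overlapped those of its neighbours Gjb6 (65.3 ± 17.7 TPM) and Gja1 (52.8 ± 8.04 TPM).

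**Figure D1:**
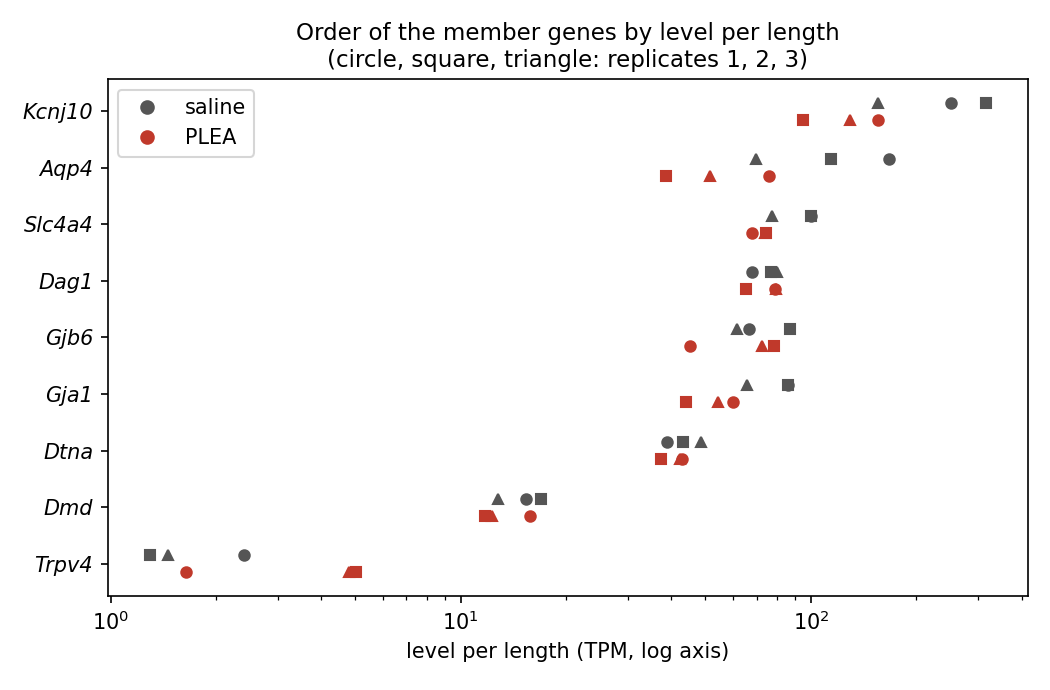
Level per length (TPM, log axis) of the 9 member genes in each of 6 libraries, ordered by the mean over all libraries, with saline above PLEA in each row and 1 symbol per replicate. Kcnj10 leads in both groups, while Aqp4 spreads from 38.7 to 167 TPM.

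No member passed the edgeR quasi-likelihood test between PLEA and saline at an adjusted p under 0.05, and neither did any gene of the table (0% of 17584). At an unadjusted p under 0.05, 4 of the 9 members had lower values in PLEA (Aqp4, Kcnj10, Gja1 and Slc4a4) and 0 had higher values. Over all tested genes the corresponding shares were 3.58% lower and 2.28% higher. For 3 of 9 members (Kcnj10, Gja1 and Slc4a4) the 3 PLEA libraries lay below all 3 saline libraries, where 5.54% of tested genes did so, and 0 members lay above, where 5.16% of genes did. The median log2 fold change was -0.27 over the members and -0.01 over all tested genes, and 8 of 9 members had a negative value. The members were chosen with earlier results of these data known, so these counts describe them and do not test them as a group.

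**Figure D2:**
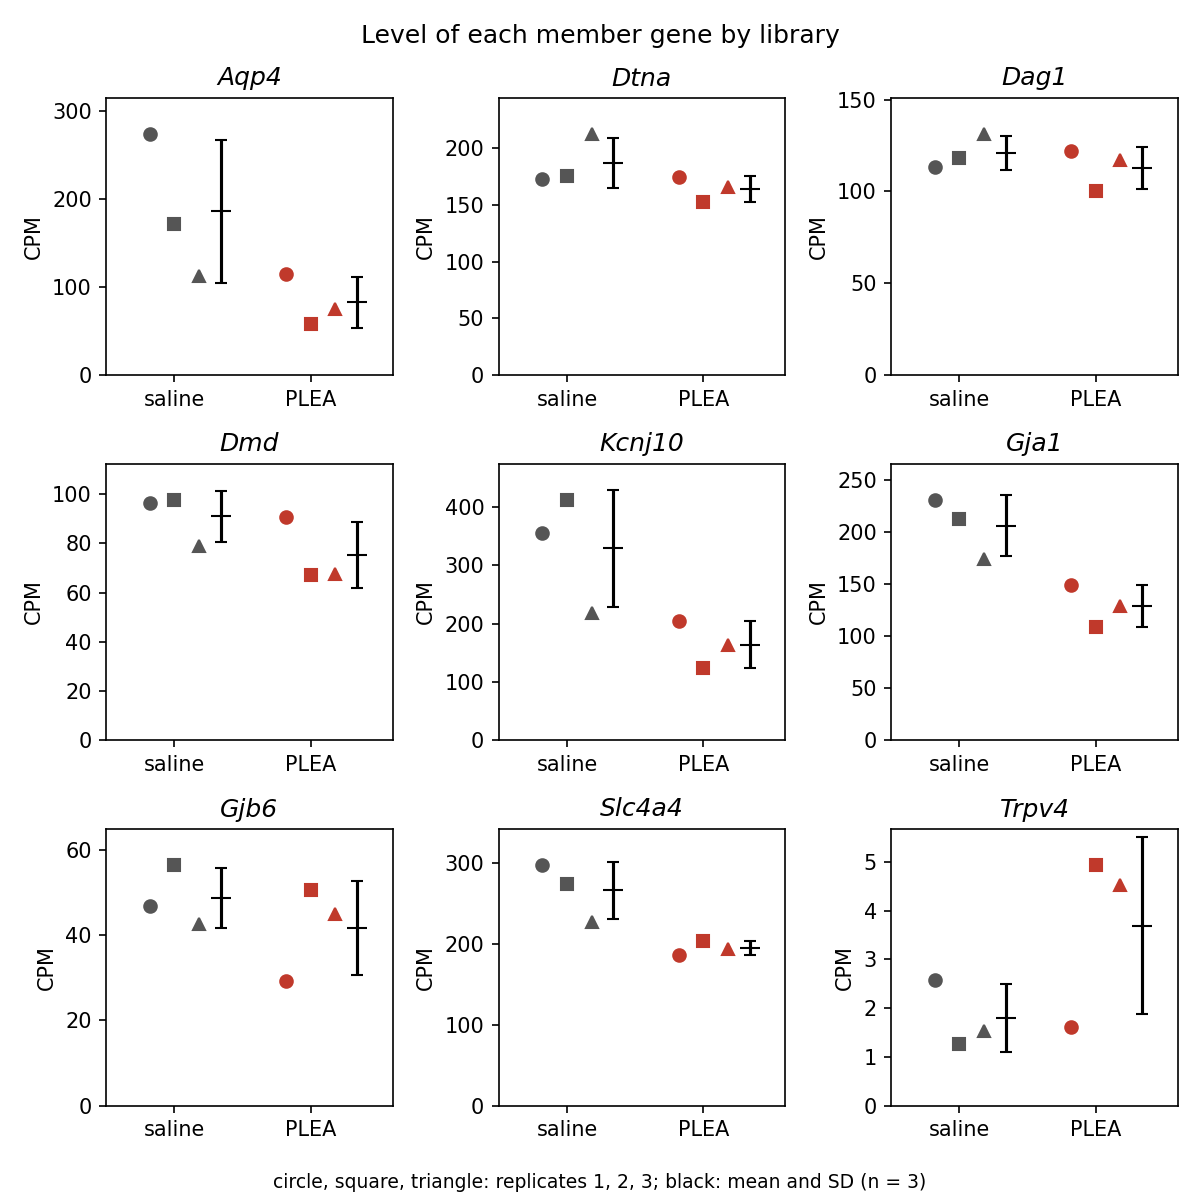
Level (CPM) of each member gene in the 3 saline (grey) and 3 PLEA (red) libraries, each axis starting at 0, with 1 symbol per replicate and the mean and SD in black. The groups do not overlap for Kcnj10, Gja1 and Slc4a4, and Trpv4 is high in PLEA replicates 2 and 3 alone.

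The water channel gene showed the widest spread of the abundant members. Aqp4, which encodes aquaporin-4, had 274, 172 and 112 CPM in the saline libraries, in the order of replicates 1 to 3, and 115, 58.1 and 74.3 CPM in the PLEA libraries. Saline replicate 1 was highest and PLEA replicate 2 lowest, and the groups overlapped because PLEA replicate 1 lay just above saline replicate 3. Group means were 186 ± 81.5 CPM in saline and 82.3 ± 29.1 CPM in PLEA (SD, n = 3), a log2 fold change of -1.18 (SE 0.34, edgeR adjusted p = 0.818). Without saline replicate 1 the value was -0.78, and without PLEA replicate 1 it was -1.51. DESeq2 gave an adjusted p of 0.0698. With edgeR and no filter on low counts Aqp4 passed, at an adjusted p of 0.0438.

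Saline replicate 1 also stood apart in other cell types. The summed level of 13 reactive astrocyte genes was 2441 CPM there, against 610 and 575 CPM in saline replicates 2 and 3 and 238 to 977 CPM in PLEA. Gfap, the intermediate filament of reactive astrocytes, was at 1683, 387 and 358 CPM in saline and at 488, 109 and 456 CPM in PLEA. The sum of 8 microglia and macrophage markers was 650 CPM in saline replicate 1, 201 and 260 CPM in the other saline libraries and 105 to 321 CPM in PLEA. PLEA replicate 2 was the lowest library in both lists, as it was for 6 of the 9 members. The part of these differences in the Aqp4 values was not tested. In bulk tissue fewer cells of a type and less RNA per cell cannot be told apart.

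The 3 anchoring genes had log2 fold changes from -0.27 to -0.10. Dtna, which encodes the syntrophin-binding protein alpha-dystrobrevin, was at 173, 176 and 213 CPM in saline and at 175, 152 and 166 CPM in PLEA. The groups overlapped, with a log2 fold change of -0.19 (SE 0.13, edgeR adjusted p = 0.842). Dag1, which encodes both subunits of dystroglycan, was at 113, 118 and 131 CPM in saline and at 122, 100.0 and 117 CPM in PLEA. Its groups overlapped too, and its log2 fold change of -0.10 (SE 0.12, edgeR adjusted p = 0.898) was the smallest of the members. Dmd, the dystrophin gene, whose short product Dp71 is the main form in glia and whose full-length product is found in neurons and muscle, had 96.2, 97.7 and 78.8 CPM in saline. In PLEA it had 90.6, 67.3 and 67.7 CPM, a log2 fold change of -0.27 (SE 0.16, edgeR adjusted p = 0.823), with PLEA replicate 1 inside the saline range. The counts do not separate its products.

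Single libraries set the size of these small values. Dtna was at -0.10 without saline replicate 3, Dag1 at -0.02 without PLEA replicate 2, at -0.05 without saline replicate 3, at -0.16 without PLEA replicate 1 and at -0.06 with library totals as the only scaling, and Dmd at -0.44 without PLEA replicate 1 and -0.15 with the striatal marker level as a covariate. As a ratio of levels per length, Aqp4 over Dag1 was 2.47, 1.48 and 0.874 in saline and 0.959, 0.592 and 0.648 in PLEA. Overlap came from 1 PLEA library, replicate 1. The exact two-sided permutation p was 0.2 (0.4 after Benjamini-Hochberg adjustment over 4 ratios), and groups of 3 cannot give a p below 0.1.

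Partners of the anchoring complex had log2 fold changes from -0.81 to 0.17. Of 14 listed partners 14 were tested, 0 passed over all genes, and 1 was lower and 0 higher at an unadjusted p under 0.05, with a median log2 fold change of -0.16. In CPM 4 lay below saline without overlap, where 5.54% of all tested genes did so. Of these 4, only Utrn also lay below saline per length. Utrn, the dystrophin homologue utrophin, was at 107, 107 and 92.4 CPM in saline and at 82.8, 62.7 and 80.5 CPM in PLEA (log2 fold change -0.44, SE 0.14, edgeR adjusted p = 0.818). Sntb1, a beta-syntrophin, had -0.81 (SE 0.37) at 3.01 to 11.8 CPM, the laminin chain gene Lama2 -0.33 (SE 0.15) and the small membrane protein gene Sspn -0.35 (SE 0.17). The 10 enzymes and factors that put sugars on dystroglycan had a median of 0.00, with values from -0.17 (Pomt1) to 0.20 (B4gat1, with 4 to 17 counts per library) and 0 in either direction at an unadjusted p under 0.05. Pomk, a kinase that acts on these sugars, had -0.15 (SE 0.14).

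The other aquaporins were scarce. Of 8 listed, 3 were tested and Aqp8 had no count in any library. Aqp11, a channel of intracellular membranes, was at 16.5, 14.7 and 14.96 CPM in saline and at 11.9, 11.7 and 11.5 CPM in PLEA. The groups did not overlap, with a log2 fold change of -0.39 (SE 0.14, edgeR adjusted p = 0.818). Aqp9, a glycerol and water channel, averaged 1.74 CPM in saline and 0.988 CPM in PLEA (log2 fold change -0.82, SE 0.42), and Aqp1 1.07 and 0.992 CPM (log2 fold change -0.11, SE 0.81).

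Kcnj10, which encodes the channel that sets the resting potassium conductance of astrocytes, was at 356, 412 and 218 CPM in saline and at 204, 123 and 163 CPM in PLEA. The 3 PLEA libraries lay below the 3 saline libraries, but saline replicate 3 and PLEA replicate 1 were close, and per length they met at 155.8 and 156.0 TPM, so that on that scale the groups overlapped. The means were 328 ± 99.9 CPM in saline and 163 ± 40.3 CPM in PLEA (SD, n = 3), a log2 fold change of -1.01 (SE 0.26, edgeR adjusted p = 0.818). DESeq2 called Kcnj10 lower (log2 fold change -1.02, SE 0.26, adjusted p = 0.0397), the 1 member among the 0.204% of genes that it called lower. Without the filter on low counts edgeR called 2 members lower, Kcnj10 (adjusted p = 0.0384) and Aqp4, among 0.0907% of genes. Leaving out 1 library gave log2 fold changes from -1.24 to -0.82.

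Striatal marker levels also varied within both groups. Saline replicate 2, the highest for Kcnj10, had the lowest sum of striatal markers (239.5 CPM), and PLEA replicate 2, the lowest for Kcnj10, had 2248 CPM. Saline replicate 3 had 2283 CPM and was the lowest saline library for Kcnj10, at 218 CPM against 123 CPM in PLEA replicate 2. The striatal sum was 968 CPM in saline replicate 1 and 1046 CPM in PLEA replicate 1, with Kcnj10 at 356 and 204 CPM. PLEA replicate 3 had a striatal sum of 1946 CPM, with Kcnj10 at 163 CPM. With the mean log2 level of those markers as a covariate, the Kcnj10 log2 fold change was -0.69 (SE 0.18, edgeR adjusted p = 1). That fit gave -0.99 for Aqp4 and -0.57 for Gja1. The part of striatal tissue in these values was not tested further.

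Other genes of potassium and sodium handling included several with PLEA values below all saline values. Of 13 listed genes 12 were in the table and tested, 0 passed over all genes, 3 were lower and 0 higher at an unadjusted p under 0.05, and the median log2 fold change was -0.24. Kcnj16, whose product Kir5.1 forms mixed channels with Kir4.1, was at 41.9, 33.7 and 22.9 CPM in saline and at 17.7, 17.1 and 19.0 CPM in PLEA (log2 fold change -0.87, SE 0.21, edgeR adjusted p = 0.818). Atp1b2, a sodium pump subunit gene of astrocytes, had a log2 fold change of -0.66 (SE 0.19) without overlap between groups in CPM. Per length its groups overlapped. Slc12a2, the sodium, potassium and chloride cotransporter, had -0.33 (SE 0.17) with overlap. The ratio of Kcnj10 to Kcnj16 per length was 6.18, 8.90 and 6.92 in saline and 8.37, 5.27 and 6.23 in PLEA, which overlapped (exact two-sided permutation p = 0.6, adjusted over 4 ratios 0.6).

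Gja1, which encodes connexin 43, was at 231, 213 and 174 CPM in saline and at 149, 109 and 129 CPM in PLEA. The groups did not overlap, and the log2 fold change was -0.68 (SE 0.16, edgeR adjusted p = 0.818), from -0.80 to -0.57 when 1 library was left out. Its unadjusted p of 0.00247 was the smallest of the members and rank 44 among all genes. Gjb6, which encodes connexin 30, was at 46.7, 56.4 and 42.7 CPM in saline and at 29.2, 50.5 and 44.9 CPM in PLEA. PLEA replicates 2 and 3 lay within the saline range and replicate 1 below it, with a log2 fold change of -0.23 (SE 0.21, edgeR adjusted p = 0.867). Without PLEA replicate 1 that value was -0.04, without saline replicate 2 it was -0.11, and without PLEA replicate 2 it was -0.39.

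The ratio of Gja1 to Gjb6 per length was 1.29, 0.985 and 1.07 in saline and 1.33, 0.563 and 0.751 in PLEA. Overlap came from PLEA replicate 1, which had the highest ratio of all (exact two-sided permutation p = 0.4, adjusted over 4 ratios 0.533), so a difference between the connexins was not shown. Of 16 other connexin, pannexin and partner genes 12 were tested, 0 passed over all genes, 2 were lower and 0 higher at an unadjusted p under 0.05, and the median log2 fold change was -0.31. Gjb2 (connexin 26) was at 16.7, 13.0 and 12.2 CPM in saline and at 8.15, 5.10 and 4.58 CPM in PLEA, without overlap (log2 fold change -1.23, SE 0.26, edgeR adjusted p = 0.818). Gjb1 (connexin 32, of oligodendrocytes) had -0.89 (SE 0.34), Panx2 -0.39 (SE 0.19) and the vascular connexin gene Gja4 -0.52 (SE 0.28).

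Connexins 43, 26 and 30 are also made by fibroblasts of the meninges. The summed level of 9 meningeal fibroblast markers was 175, 118 and 156 CPM in saline and 74.1, 54.5 and 56.6 CPM in PLEA, without overlap. Of these 9, 8 were lower at an unadjusted p under 0.05 and 0 were at 0 in all libraries, with a median log2 fold change of -1.45. The 4 with the smallest p were Aldh1a2 (-1.53), Dcn (-1.48), Col1a2 (-1.05) and Foxc1 (-0.93). The part of meningeal cells in the connexin values was not tested.

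Slc4a4, which encodes the sodium bicarbonate cotransporter NBCe1 of astrocytes, was at 297, 274 and 227 CPM in saline and at 186, 204 and 194 CPM in PLEA. All 3 PLEA values lay below the saline values, and the PLEA libraries were close together (195 ± 8.75 CPM against 266 ± 35.5 CPM, SD, n = 3). The log2 fold change was -0.45 (SE 0.13, edgeR adjusted p = 0.818), from -0.56 to -0.36 when 1 library was left out. Of 11 other genes of bicarbonate and acid-base transport, 10 were tested, 0 passed over all genes, 1 was lower and 0 higher at an unadjusted p under 0.05, and the median was -0.12. Car2, a carbonic anhydrase abundant in oligodendrocytes, had -0.81 (SE 0.30) and the neuronal cotransporter gene Slc4a8 -0.35 (SE 0.17), both with overlap. Slc4a7 had -0.14 (SE 0.12) and Car14 -0.14 (SE 0.24).

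Trpv4, which encodes a calcium-permeable channel opened by swelling and warmth, was the 1 member with a positive log2 fold change. It was scarce, with 44, 22 and 25 counts in saline and 28, 87 and 81 counts in PLEA, or 2.58, 1.27 and 1.54 CPM against 1.62, 4.93 and 4.53 CPM. PLEA replicates 2 and 3 were above all saline libraries and PLEA replicate 1 was within their range. The log2 fold change was 1.04 (SE 0.47, edgeR adjusted p = 0.818), and the counting error of the smallest library was 21.3%. With the striatal covariate the value was 0.69. Of 12 other TRP channel genes 10 were tested, and 0 were lower or higher at an unadjusted p under 0.05, with a median of -0.07. Trpm3 had a log2 fold change of -0.50 (SE 0.34), Trpv3 0.34 (SE 0.33), Trpc1 0.09 (SE 0.12) and Trpm7 -0.09 (SE 0.12).

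Trpv4 is also known from the choroid plexus, the epithelium that makes cerebrospinal fluid. Its transthyretin gene Ttr had 1, 27 and 8 counts in saline and 3, 98 and 5020 counts in PLEA, with PLEA replicate 3 far above the rest. The bicarbonate transporter gene Slc4a5 of the same epithelium was at 5.14 CPM in that library and at 0.397 CPM or less in the others. The sum of 8 choroid plexus markers, a list added after the data were seen, was 222 to 292 CPM in saline and 255, 217 and 696 CPM in PLEA, and 0 of the 8 were at 0 in all libraries. Of its 7 tested genes 1 (Ttr) had an unadjusted p under 0.05, in the higher direction, with a median of 0.76. Without PLEA replicate 3 the Trpv4 log2 fold change was 0.86. PLEA replicate 2, the highest for Trpv4, had the lowest sum of that list. Its counts of Ttr (98) and Slc4a5 (7) were nevertheless above those of every library except PLEA replicate 3. Ependymal markers, 5 of 6 tested, had a median of 0.83, and the 6 summed to 7.74, 20.1 and 8.25 CPM in the saline libraries and 16.99, 13.9 and 21.8 CPM in the PLEA libraries. The part of both marker lists in the Trpv4 values was not tested.

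**Figure D3:**
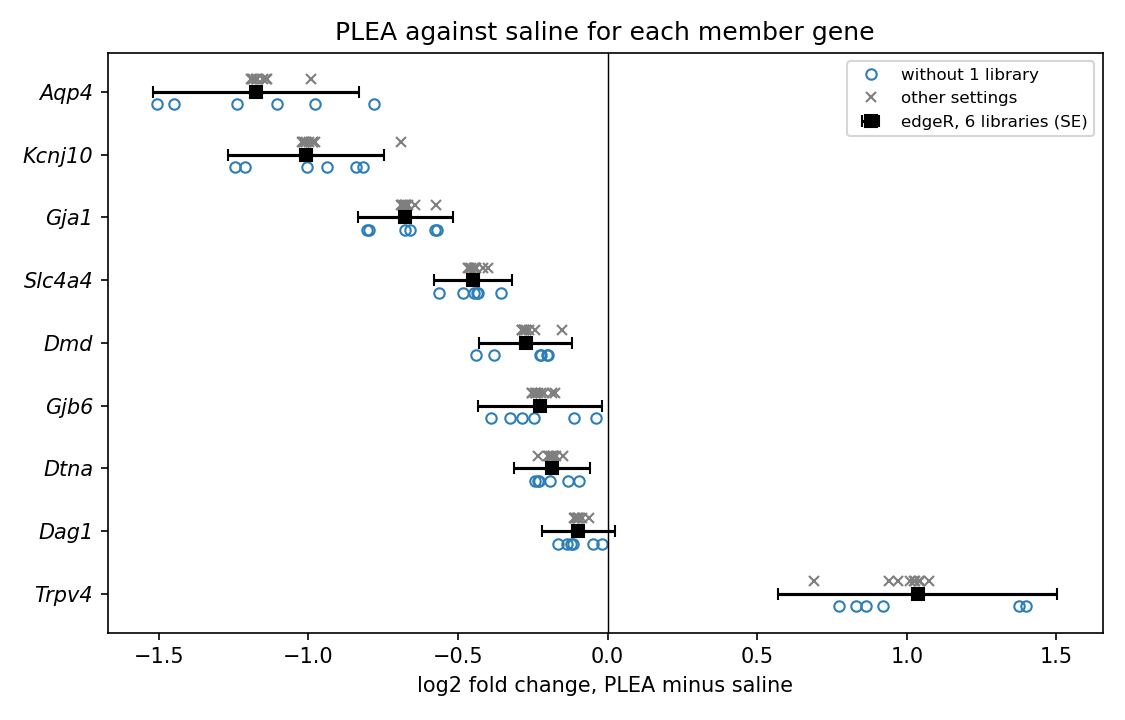
Log2 fold change (PLEA minus saline) of each member gene: the edgeR value from 6 libraries with its SE (black), the values without 1 library (open circles) and those under other settings (crosses). Aqp4, Kcnj10, Gja1 and Slc4a4 lie furthest below 0, and no member changed sign in its 15 alternatives.

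The members were also set against other astrocyte genes, of which 15 of 16 had a negative log2 fold change. Of 16 astrocyte identity genes 16 were tested, 0 passed over all genes, and 5 were lower and 0 higher at an unadjusted p under 0.05. In CPM 6 lay below saline without overlap, where 5.54% of all tested genes did so. Of these 6, only Aldoc and Slc39a12 also lay below saline per length. The median log2 fold change of the 16 genes was -0.34, more negative than that of the 9 members. Slc39a12, a zinc transporter, had -0.65 (SE 0.15), the glycolytic enzyme gene Aldoc -0.51 (SE 0.14), the calcium-binding protein gene S100b -0.58 (SE 0.22) and the GABA transporter gene Slc6a11 -0.97 (SE 0.40). The mean log2 CPM of the 16 genes was 7.33, 7.18 and 6.89 in saline and 6.76, 6.74 and 6.89 in PLEA, a difference of -0.34.

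Relative to that mean, 3 members had differences of -0.34 or below and the others were near 0 or, for Trpv4, positive. Gja1 was 0.52, 0.55 and 0.55 log2 units above the reference in saline and 0.46, 0.03 and 0.12 in PLEA, a difference of -0.34 without overlap between groups. Aqp4 stood at 0.76, 0.24 and -0.08 in saline and at 0.08, -0.87 and -0.67 in PLEA, a difference of -0.80 with overlap. Kcnj10 stood at 1.14, 1.50 and 0.87 in saline and at 0.91, 0.21 and 0.45 in PLEA, a difference of -0.65 with overlap. For Slc4a4 the difference was -0.10 (saline 0.91 ± 0.03, PLEA 0.81 ± 0.12; SD, n = 3). Differences were 0.16 for Dtna, 0.24 for Dag1, 0.06 for Dmd and 0.09 for Gjb6, all with overlap and each under 1 SD of the saline or the PLEA libraries. Trpv4 had 1.25. Single libraries set the size of the smaller differences. Dtna ran from 0.01 (without saline replicate 1) to 0.38 (without saline replicate 3), with 0.09 without saline replicate 2 or PLEA replicate 1, and Dag1 from 0.10 to 0.42 without the same libraries. The Dmd value turned to -0.10 without PLEA replicate 1 and was 0.01 without saline replicate 1 and 0.09 without saline replicate 2. Leaving out PLEA replicate 2 gave Dmd 0.10, and leaving out PLEA replicate 3 gave 0.18. Gjb6 turned to -0.10 without PLEA replicate 2 and to -0.03 without saline replicate 1, and was 0.18 without saline replicate 2 and 0.30 without PLEA replicate 1. Slc4a4 was -0.16 without PLEA replicate 2 and -0.05 without PLEA replicate 3. Against 4 astrocyte genes in place of 16, Dmd (-0.04) and Gjb6 (-0.01) also turned sign, so no direction is read for these 2. These are descriptions with no test, since the reference was chosen with earlier results known.

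**Figure D4:**
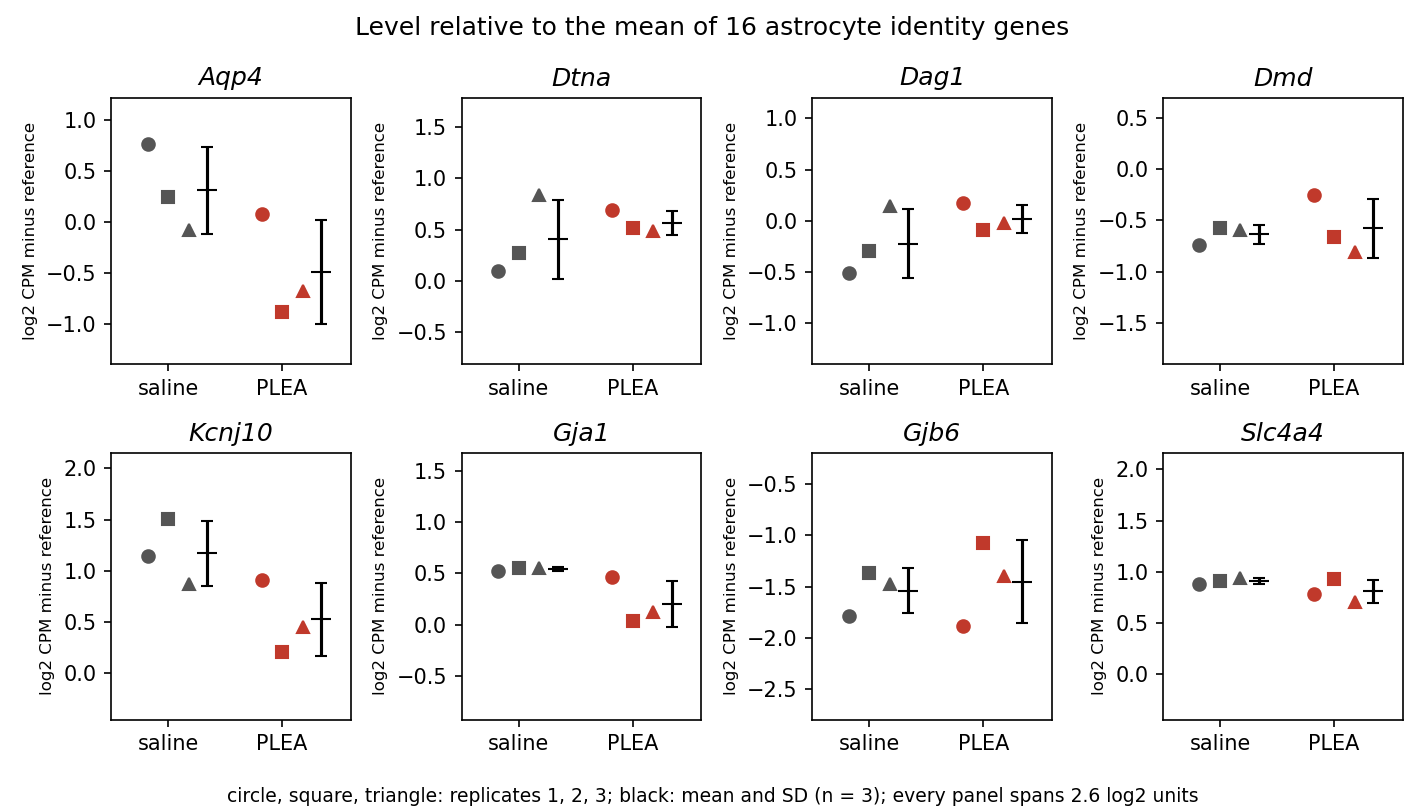
Log2 CPM of 8 member genes minus the mean log2 CPM of 16 astrocyte identity genes, by library and group, with the mean and SD in black. Gja1 is the gene whose 3 PLEA values all lie below the saline values, while PLEA replicate 1 meets the saline range for Aqp4 and Kcnj10.

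Endfoot adhesion genes and reactive genes were described alongside. Of 7 endfoot adhesion and chloride channel genes 6 were tested, 0 passed over all genes, and 1 was lower and 1 higher at an unadjusted p under 0.05, with a median of 0.05. Ptprz1, a receptor phosphatase of astrocytes and their precursors, had -0.60 (SE 0.19) and Clcn2, a chloride channel gene, 0.28 (SE 0.12). Neither gene overlapped between groups in CPM, but Ptprz1 did so per length. The glucose transporter gene Slc2a1 had 0.21 (SE 0.15) and Mlc1, which encodes an endfoot protein mutated in a leukodystrophy, -0.23 (SE 0.21). The 13 reactive astrocyte genes had a median of -0.21 with 0 lower or higher at an unadjusted p under 0.05. Of these 13 genes, 8 had a negative and 5 a positive log2 fold change, with values from -1.21 to 0.39. Their levels varied widely within groups. Those with the smallest p were all negative: Cp had -0.25 (SE 0.14), Gfap -1.21 (SE 0.70), Aspg -0.71 (SE 0.52) and Tnc -0.74 (SE 0.79).

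**Figure D5:**
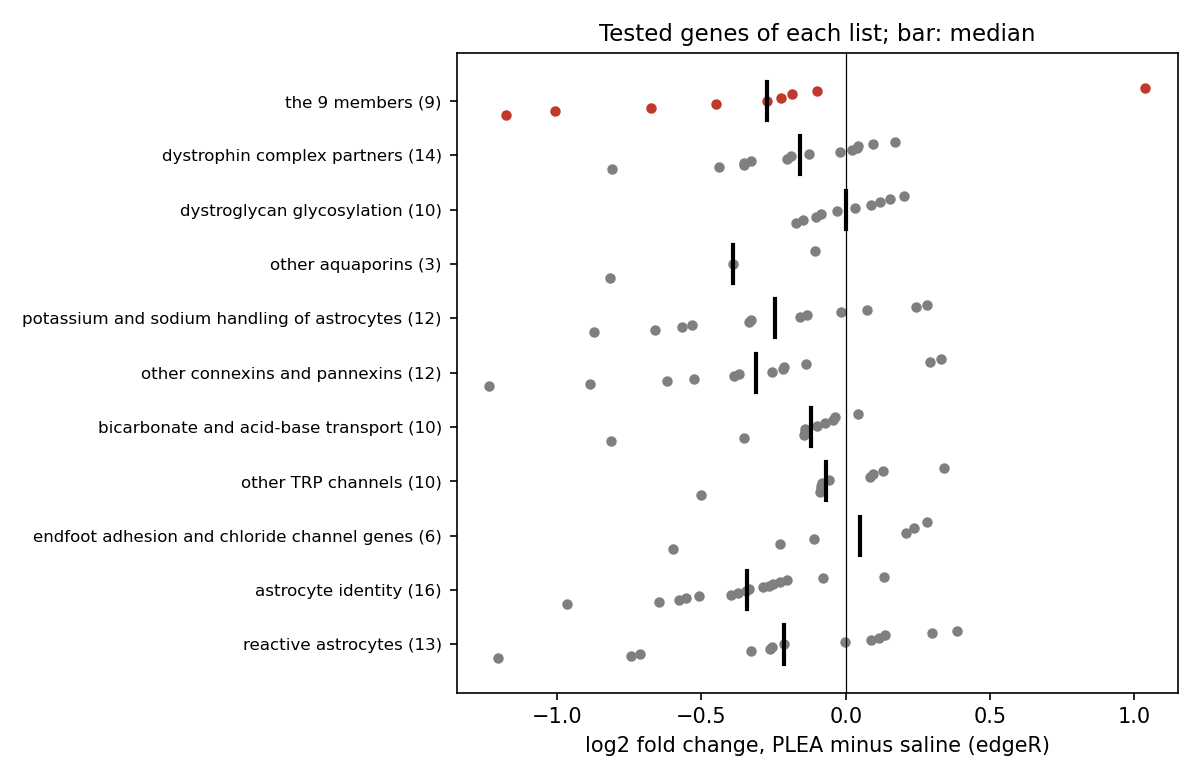
Log2 fold change (PLEA minus saline, edgeR) of every tested gene in the 9 members (red) and in 10 lists of related genes (grey), 1 point per gene with a bar at the median and the number tested in brackets. The medians run from -0.39 for the other aquaporins to 0.05 for the endfoot adhesion genes.

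Markers of other cells gave the following medians of log2 fold change. Neuronal markers were at -0.01 over 8 genes and oligodendrocyte markers at -0.21 over 8. Endothelial markers were at -0.39 over 8, mural cell markers at -0.37 over 7 tested, microglia and macrophage markers at -0.87 over 8 and striatal projection neuron markers at 0.51 over 9. At an unadjusted p under 0.05, 3 endothelial, 2 mural and 1 microglial gene were lower and 0 genes of these 6 lists were higher. Their part in the members' values was not tested.

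The members did not share a single pattern over the 6 libraries. After centring each gene's log2 CPM, Dtna and Dag1 were the closest pair, with a root mean square difference of 0.06. Aqp4 was closest to Kcnj10 (0.28), and Gja1 to Slc4a4 (0.20). Over 10110 other protein-coding genes with a mean of at least 10 CPM, the patterns most like Aqp4 belonged to Apold1 (0.21), Abca9 (0.22) and Slc13a3 (0.23). Those most like Kcnj10 belonged to Esyt1 (0.14), Tmem229a (0.16) and Igfbp5 (0.16). Among those most like Gja1 were Bmp7 (0.07) and Fads2 (0.09). These distances describe 6 libraries and carry no test.

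In the deposited table Aqp4 spans bases 15522553 to 15544039 of chromosome 18, Dtna 23548192 to 23792772 of chromosome 18, Dag1 108081833 to 108141157 of chromosome 9 and Dmd 81992476 to 84249747 of chromosome X. Kcnj10 spans 172168777 to 172201652 of chromosome 1, Gja1 56253426 to 56278609 of chromosome 10 and Gjb6 57360760 to 57371068 of chromosome 14. Slc4a4 spans 89034345 to 89387512 and Trpv4 114760213 to 114796482 of chromosome 5. No build is attached to these, because 0 of the 9 members had the same coordinates in GENCODE M21, an annotation of GRCm38. The GRCm38.p6 promoter windows of Kcnj10 and Gja1 lie past the ends of these spans, so the spans and the windows are not comparable positions. Without a stated strand setting, reads of an opposite-strand gene cannot be told apart. The genes on the opposite strand within these spans had few counts: 7 to 29 per library for Gm50048 in Aqp4, 9 to 23 for Gm47898, which shares 90 exon bases with Dtna in GENCODE M21, and 0 to 4 for a transcript antisense to Slc4a4.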

How the data were processed

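The authors deposited 1 table of raw counts per gene for the 6 libraries, with no normalization applied, and a gene length in bases. Per the labels' protocols, an RNeasy kit gave the RNA and a SMARTer mRNA kit the libraries. Not given in the sources used here: aligner, counter and strand setting. GRCm38 and mm10 are the builds in the submitters' processing notes. Samples were grouped by title.

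The 2-sided test was edgeR's quasi-likelihood test (edgeR 4.0.16, R 4.3.3) on genes kept by filterByExpr, with TMM factors and no covariate beside group. P-values were adjusted by Benjamini-Hochberg over all 17584 genes at a threshold of 0.05. Each SE was obtained as the size of the log2 fold change over the root of its F statistic. CPM uses the total times the TMM factor, log2 CPM a prior count of 2, and TPM the deposited length over all genes. DESeq2 1.42.0 and limma 3.58.1 (voom) were alternatives, and DESeq2 tested 18157 genes after its own filter. The procedure was tested on simulated data. Libraries of a group differed by 14 to 52.9 times sampling noise (chi-square per degree of freedom). Each was counted as 1 sample, although that spread does not show that they were separate animals.

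The members and lists were chosen with earlier results of these data known. The text names all 9 members, up to 4 genes per list with the smallest p and the 3 genes most like Aqp4, Kcnj10 and Gja1. The choroid plexus genes, B4gat1, Slc1a2, Slc17a7, Slc4a5 and Aqp8 were named after their values were seen. A few genes that this rule names are not reported here.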

Additional observations from a re-analysis of the deposited data

How the results depend on the processing

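Among the 15 alternatives, no member's log2 fold change turned its sign. DESeq2 called 2 genes higher and 37 lower, with 1 member lower (Kcnj10) and 1 member higher at an unadjusted p under 0.05. The fit without a filter called 7 higher and 31 lower, with 2 members lower (Kcnj10 and Aqp4) and 1 higher at an unadjusted p under 0.05. The cause was not tested. RLE and upper-quartile factors, library totals, the stricter filter, limma voom, the striatal covariate and the replicate block called 0 in each direction. When 1 library was left out, 0 to 0 genes were called higher and 0 to 1 lower (1 without saline replicate 1), with 0 to 0 members called either way. At an unadjusted p under 0.05 the members numbered 4 to 5 lower (5 without PLEA replicate 1) and 0 to 1 higher (Trpv4, without saline replicate 1 or PLEA replicate 1), and their median ran from -0.43 (without PLEA replicate 1) to -0.23. The counts at an unadjusted p were added after seeing the data. Whether the replicate numbers pair the samples was not settled. Deviations of same-numbered libraries correlated at 0.373, 0.173 and -0.0176, and those of differently numbered ones at -0.358 to 0.23. With 3 libraries per group these values cannot decide it. The replicate block, with a member median of -0.28, changed no call. It gave Aqp4 -1.14 (SE 0.19, edgeR adjusted p = 0.262), and 1367 genes in place of 1031 had an unadjusted p under 0.05. With 4 reference genes in place of 16, the relative difference was -0.20 for Slc4a4, 0.06 for Dtna, 0.14 for Dag1, -0.04 for Dmd, -0.01 for Gjb6, -0.89 for Aqp4, -0.74 for Kcnj10, -0.43 for Gja1 and 1.149 for Trpv4. Among the members depth limits Trpv4, with a counting error of 21.3% in its smallest library.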
